A study of Chlamydomonas reinhardtii with 5 samples.

Results

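The genes described here are those whose RNA-Seq counts in Chlamydomonas reinhardtii were higher after γ-irradiation at both 6 and 50 Gy than in the mock and than after X-irradiation at either dose. They were chosen on the counts themselves. Counts were divided by median-of-ratios size factors, 1 was added, and a gene was taken when GR6 and GR50 were each at least 1.8 times the mock, XR6 and XR50, when GR50 was less than 2 times GR6, and when its mean raw count over the 5 libraries was 20 or more. The 15 open reading frames (ORFs) that the paper lists as changed after both radiation types were left out, and none of them met the rule. In all, 171 genes were found among the 12839 genes with a mean count of 20 or more, out of 17742 genes in the count tables. This is 1.33% of the genes with a mean of 20 or more. Because the values of all 5 libraries chose the genes, every ratio between libraries below is a description and carries no test.

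C. reinhardtii is a single-celled green alga that swims with paired flagella, carries a single large chloroplast and is widely used to study photosynthesis and stress responses. Ionizing radiation breaks DNA strands and splits water into reactive oxygen species, and cells commonly answer with the transcription of DNA repair, antioxidant and protein quality control genes. X-rays and γ-rays are both high-energy photons, which differ in how they are produced, in photon energy and often in the rate at which a dose is delivered.

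The cells were the wild type (WT) strain CC-125 throughout, grown to mid-exponential phase in an acetate-containing medium (TAP) under constant white light. The mock library came from cells that received 0 Gy. XR6 and XR50 are cells given X-rays of 6 Gy over 22.2 min or of 50 Gy over 8.1 min, and GR6 and GR50 are cells given γ-rays of 6 or 50 Gy, each over 1 h, from a cobalt source. For X-irradiation the cells were concentrated into microcentrifuge tubes, whereas for γ-irradiation they were dispensed into larger conical tubes without concentrating. How the mock cells were handled, and the time between irradiation and RNA extraction, are not given in the sources used here. As these are bulk samples, fewer cells of a kind and less RNA per cell cannot be told apart. The radiation type likewise cannot be told apart from the handling, the exposure time and the dose rate. Within a radiation type, dose went with dose rate, and for X-rays also with exposure time and tube current. These cannot be told apart either. Each condition had 1 column of counts, treated here as 1 library. The text of the study tells of biological replicates from different batches, and whether a column pools them is not given in the sources used here. There is thus no replicate error, and the intervals given cover counting error only. Polymerase chain reaction (PCR) duplicates were not marked by molecular identifiers, which adds to the true error.

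Reads on genes ran from 18364833 to 20330055 per library, and their size factors lay between 0.940 and 1.04. Reads listed as not aligned made up between 32.2% and 41.8% of all reads listed, with the lowest share in XR6. All 17742 IDs were found in the RefSeq table of the NCBI v5.5 assembly, which gave 0 symbols other than the ORF name. No role is therefore stated for any of the 171 genes, the labelled cell type was not checked against markers, and genes are described by ORF name, position and level. As a reference for what both radiation types changed, CrRPA70A (CHLRE_17g718850v5), a replication protein A subunit that coats single-stranded DNA during replication and repair, had 1080 and 6862 counts in GR6 and GR50, with 107 in the mock and 1588 and 3391 in XR6 and XR50. Counts of this DNA repair transcript were thus far above the mock in the X-irradiated libraries too.

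The 171 genes took 1.98% of the reads on genes in GR6 and 1.84% in GR50, whereas they took 0.613% in the mock, 0.625% in XR6 and 0.501% in XR50. Their median log2 ratio to the mock was 1.47 in GR6 and 1.38 in GR50, against 0.01 in each of these libraries over all genes with a mean of 20 or more. Single genes ranged from 0.85 to 4.27 in GR6 and from 0.85 to 3.98 in GR50, where 0.85 is the log2 of the 1.8-fold limit. Among all genes with a mean of 20 or more, 8.67% were at least 1.8-fold above the mock in GR6 and 16.2% were so in GR50. At least 1.8-fold above the mock in both were 6.16%, so most genes that were high after γ-rays were left out by the comparison with the X-ray libraries or by the limit on GR50. The same rule turned around, with the X-ray libraries in place of the γ-ray libraries, took 31 genes, or 0.241%.

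**Figure D1:**
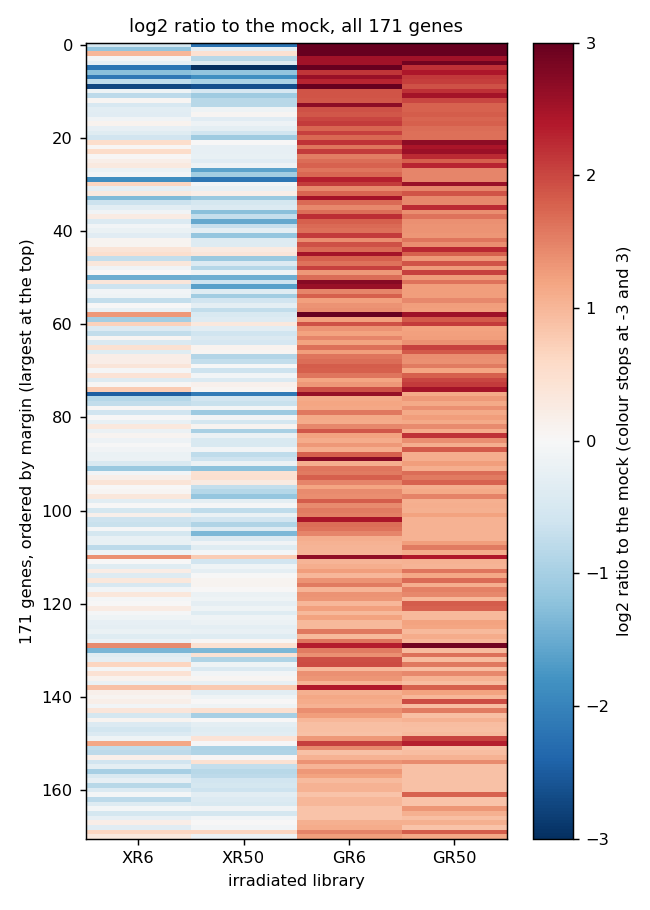
Colour gives the log2 ratio to the mock of each of the 171 genes (rows, ordered by the margin of the lower γ-ray library over the highest other library) in the 4 irradiated libraries (columns), with 1 library per column and colours that stop at -3 and 3. Both γ-ray columns are red throughout, as the rule requires, and the X-ray columns are mostly pale or blue, with the XR50 column the bluer (median -0.36, against -0.13 in XR6).

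The margin of a gene is the lower of its γ-ray values divided by the highest of its other 3 values. Its median over the 171 genes was 1.11 on the log2 scale. It was at least 2-fold in 118 genes, at least 3-fold in 22, at least 4-fold in 9 and at least 8-fold in 2. The exact (Clopper-Pearson) 95% interval of the margin lay above 1-fold in all 171 genes and wholly above 1.8-fold in 95 of them. The place of the other 76 on the inner side of the limit is not fixed by the counts alone. These intervals come from the values that chose the genes, so they are no support for the choice.

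CHLRE_13g569450v5 (NCBI v5.5, chromosome 13, 1121166 to 1126227) had the largest margin. It had 86 counts in the mock, 1241 after γ-rays of 6 Gy and 1435 of 50 Gy, and 65 (XR6) and 19 (XR50) after X-rays. The γ-ray libraries were 13.6-fold or more above every other library (log2 margin 3.77, 95% interval 3.47 to 4.11), and XR50 was the lowest of all. CHLRE_12g521900v5 (chromosome 12, 4506823 to 4511334) followed with 766 counts in GR6 and 1259 in GR50, against 71 in the mock, 34 in XR6 and 63 in XR50. Its margin was 10.2-fold (log2 3.35, 3.01 to 3.73), and GR50 exceeded GR6 beyond the counting error. CHLRE_10g436000v5 (chromosome 10, 2457560 to 2474452) had 2382 and 2017 counts in GR6 and GR50, with 117 in the mock and 258 and 171 in XR6 and XR50. It was the gene with the largest ratio of GR6 to the mock (log2 4.27), and it was also higher in XR6 than in the mock, by 1.00 on the log2 scale. These are 3 different patterns outside the γ-ray libraries, namely a low XR50, a low XR6 and a high XR6.

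CHLRE_12g521950v5 (chromosome 12, 4511383 to 4515894), the gene next to CHLRE_12g521900v5, had 84 counts in the mock, 510 after γ-rays of 6 Gy and 542 of 50 Gy, and 89 (XR6) and 50 (XR50) after X-rays. Its γ-ray values did not differ beyond the counting error (log2 ratio of GR50 to GR6 0.01, -0.17 to 0.19). CHLRE_03g174450v5 (chromosome 3, 4268031 to 4271424) combined a large margin with many reads, with 11265 counts in GR6 and 15418 in GR50, against 1884 in the mock, 1753 in XR6 and 1524 in XR50. Its margin was 5.70-fold (log2 2.51, 2.44 to 2.58). The X-ray libraries were below the mock by log2 ratios of -0.24 in XR6 and -0.40 in XR50. CHLRE_06g262800v5 (chromosome 6, 1832273 to 1841968) had log2 ratios to the mock of -0.12 in XR6 and -0.51 in XR50. It had 4391 and 5678 counts in GR6 and GR50, against 1126 in the mock, 1137 in XR6 and 840 in XR50, a margin of 3.72-fold.

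CHLRE_06g298750v5 (chromosome 6, 7302691 to 7308284) had 330 counts in the mock, 1698 after γ-rays of 6 Gy and 1551 of 50 Gy, and 215 (XR6) and 182 (XR50) after X-rays. CHLRE_06g278246v5 (chromosome 6, 4252506 to 4255051) had 4017 counts in GR6 and 6458 in GR50, against 1041 in the mock, 664 in XR6 and 530 in XR50. Both were lower after either X-ray dose than in the mock, with log2 ratios between -1.06 and -0.75, and differed in which γ-ray dose was the higher. The other 4 of the 12 genes with the largest margin, CHLRE_13g569400v5, CHLRE_16g653650v5, CHLRE_09g400404v5 and CHLRE_01g033300v5, were at least 1.8-fold below the mock in both X-ray libraries.

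**Figure D2:**
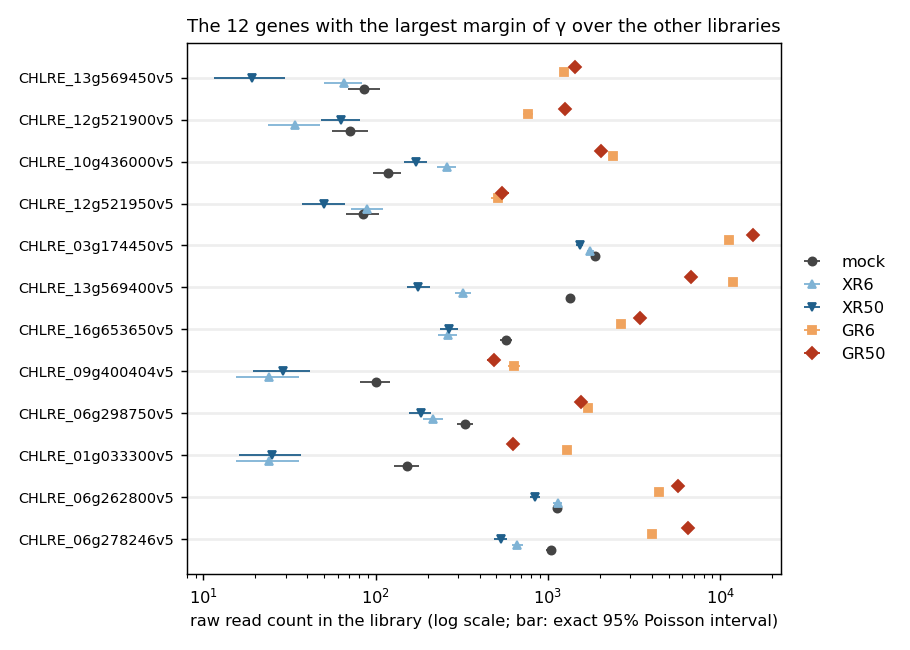
Points give the raw read count (log scale) of the 12 genes with the largest margin in the mock, XR6, XR50, GR6 and GR50, with exact 95% Poisson intervals as bars, 1 library per symbol. In every gene both γ-ray symbols lie to the right of the other symbols, as chosen, and in CHLRE_01g033300v5 and CHLRE_09g400404v5 the X-ray counts (24 to 29) lie well to the left of the mock (151 and 100).

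The 6 genes with the most reads held 28.8% of the reads on the 171 genes in GR6, 33.0% in GR50 and 31.3% in the mock. CHLRE_17g725200v5 (chromosome 17, 3516230 to 3524200) had 21921 and 25769 counts in GR6 and GR50, with 7919 in the mock and 11154 and 11812 in XR6 and XR50. CHLRE_10g458450v5 (chromosome 10, 5436288 to 5438246) had 8085 counts in the mock, 20019 after γ-rays of 6 Gy and 24267 of 50 Gy, and 5452 (XR6) and 5818 (XR50) after X-rays. Outside the γ-ray libraries these genes went opposite ways, with X-ray values above the mock in the former and below it in the latter. CHLRE_02g093750v5 (chromosome 2, 2732866 to 2736347) resembled the latter, with 22835 counts in GR6 and 17961 in GR50, against 8821 in the mock, 4846 in XR6 and 5286 in XR50. Its margin over the mock was only 1.84-fold, whereas GR6 and GR50 were further above both X-ray libraries. CHLRE_05g234661v5 (chromosome 5, 2239462 to 2243977) had 17767 and 20629 counts in GR6 and GR50, with 5065 in the mock and 6836 and 6051 in XR6 and XR50. CHLRE_13g588150v5 (chromosome 13, 3552575 to 3556962) had 5186 counts in the mock, 14989 after γ-rays of 6 Gy and 19513 of 50 Gy, and 7495 (XR6) and 6691 (XR50) after X-rays. Both were slightly higher after X-rays than in the mock (log2 ratios between 0.17 and 0.40). At this depth the counting interval of the log2 margin reached about 0.04 either side (1.40 to 1.49 and 1.03 to 1.11). With library totals in place of size factors the margins were 1.33 and 0.95, outside these intervals. Those of CHLRE_10g458450v5 (1.33), CHLRE_02g093750v5 (0.95) and CHLRE_03g174450v5 (2.60) also moved outside their intervals, while that of CHLRE_17g725200v5 (0.92) did not. CHLRE_03g174450v5, described above, was the remaining gene of the 6. Counts were not compared between genes as levels per transcript, since gene spans include introns.

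The rule asked only that the X-ray libraries be low, not where they stood relative to the mock. The mock was the highest of the 3 libraries without γ-rays in 101 of the 171 genes, XR6 in 58 and XR50 in 12. This split was not computed over all genes with a mean of 20 or more, so these counts have nothing to be set against. The median log2 ratio to the mock was -0.13 in XR6 and -0.36 in XR50, against 0.00 and -0.01 over all genes with a mean of 20 or more. XR6 was below the mock in 110 genes (64.3%, against 50% of all genes with a mean of 20 or more) and XR50 in 139 (81.3%, against 50.9%). With library totals in place of size factors, XR6 was below the mock in 76 genes (44.4%, against 35.9% of all), and the median ratio of XR6 to the mock was 0.064 while that of all genes moved to 0.20. Relative to all genes, the median was -0.13 with size factors and -0.14 with library totals. The rule holds down every library outside γ, and the mock served as the divisor for all of these ratios.

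Beyond the counting error, 68 of the 171 genes were lower in XR6 than in the mock (39.8%, against 29.2% of all genes), 27 were higher (15.8%, against 30%) and 76 were within it. In XR50, 91 were lower (53.2%, against 22.2%), 9 were higher (5.26%, against 23.9%) and 71 were within it. In both X-ray libraries, 56 genes were lower than the mock beyond the counting error (32.7%, against 16.5%) and 6 were higher (3.51%, against 17.2%). Of at least 1.8-fold, 14 genes were lower than the mock in XR6 (8.19%, against 4.41%) and 33 in XR50 (19.3%, against 3.12%). High X-ray values were barred by the rule, so the shares of higher and of lower genes both follow from it in part. Genes with more reads also pass the counting-error call more easily, and the 171 genes had a higher median mean count (422.2, against 209.2). XR50 was the lowest of the 5 libraries in 103 genes (60.2%, against 16.1%), XR6 in 45 (26.3%, against 21.8%) and the mock in 23 (13.5%, against 21.1%). By the rule a γ-ray library could not be the lowest, so these shares add up over 3 libraries here and over 5 in all genes. They too are shaped in part by the choice of the genes.

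**Figure D3:**
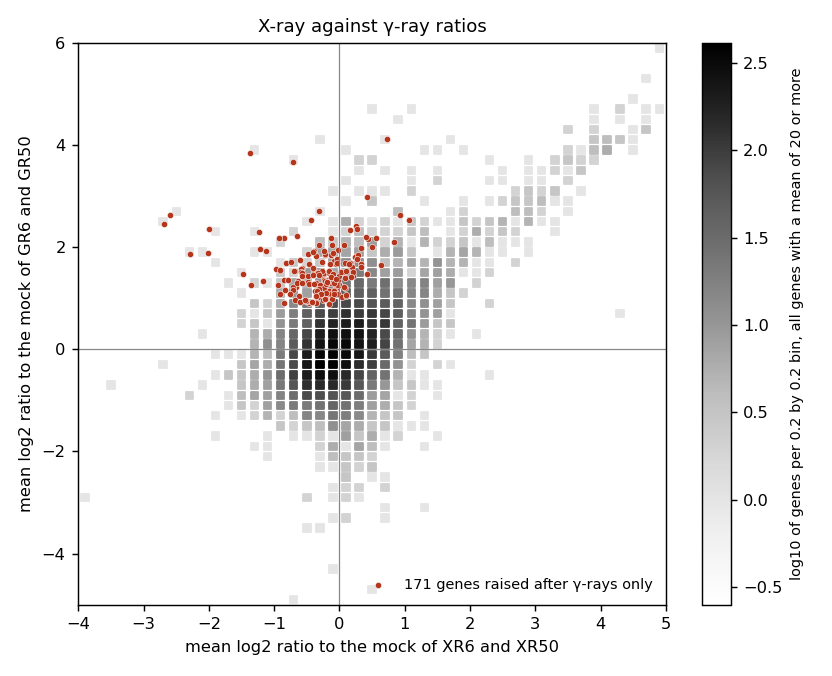
Each red point is one of the 171 genes, with the mean log2 ratio to the mock of XR6 and XR50 on the horizontal axis and of GR6 and GR50 on the vertical axis. Grey squares give all 12839 genes with a mean of 20 or more, darker where a bin holds more genes, and a few genes beyond the axes are not drawn. The red points lie above 0 vertically and mostly left of 0 horizontally, apart from the diagonal arm of genes high after both radiation types, and a small set reaches below -2 after X-rays.

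In 10 of the 171 genes (5.85%), both X-ray libraries were at least 1.8-fold below the mock, against 1.33% of all genes with a mean of 20 or more. These genes were picked out after their values were seen. CHLRE_13g569400v5 (chromosome 13, 1118318 to 1121021) had 11859 counts in GR6 and 6734 in GR50, against 1340 in the mock, 322 in XR6 and 177 in XR50. The mock thus stood between the radiation types, about 3 log2 units from either XR50 (-3.0) or GR6 (3.08). CHLRE_01g033300v5 (chromosome 1, 4811030 to 4814601) had 1283 and 628 counts in GR6 and GR50, with 151 in the mock and 24 and 25 in XR6 and XR50. The X-ray counts were alike at both doses, and GR6 was more than 2 times GR50. CHLRE_13g566850v5 (chromosome 13, 766218 to 768757) had 331 counts in the mock, 2118 after γ-rays of 6 Gy and 809 of 50 Gy, and 65 (XR6) and 80 (XR50) after X-rays. The order of the 5 libraries was that of CHLRE_01g033300v5.

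CHLRE_06g281250v5 (chromosome 6, 5131766 to 5139867) had 3019 counts in GR6 and 1742 in GR50, against 572 in the mock, 171 in XR6 and 135 in XR50. CHLRE_09g400404v5 (chromosome 9, 5496953 to 5500652) had 635 and 483 counts in GR6 and GR50, with 100 in the mock and 24 and 29 in XR6 and XR50. CHLRE_06g263550v5 (chromosome 6, 1921009 to 1923037) had 1563 counts in the mock, 5277 after γ-rays of 6 Gy and 4163 of 50 Gy, and 608 (XR6) and 606 (XR50) after X-rays. In all 3, both X-ray libraries were near each other and GR6 was the highest library. CHLRE_13g589350v5 (275, 121, 134, 1627 and 826 counts in the mock, XR6, XR50, GR6 and GR50), CHLRE_10g463250v5 (111, 56, 50, 357 and 261) and CHLRE_07g342100v5 (206, 87, 86, 640 and 442) repeated this. CHLRE_16g653650v5 (chromosome 16, 1565636 to 1568027) was the one exception in the order of the γ-ray doses, with 2656 counts in GR6 and 3424 in GR50, against 571 in the mock, 261 in XR6 and 266 in XR50. GR6 was above GR50 in 9 of these 10 genes and in 83 of the other 161. Their median log2 ratio of GR6 to the mock was 2.41, against 1.43 in the other 161, whereas the medians for GR50 were close, with 1.45 and 1.38. No test was made, since the genes were chosen on these libraries.

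At the other end, 6 genes were at least 1.8-fold above the mock in XR6 (3.51%, against 9% of all genes) and 0 in XR50 (against 5.82%). These too were picked out after their values were seen. CHLRE_16g676350v5 (chromosome 16, 6029176 to 6044867) had 678 and 1034 counts in GR6 and GR50, with 125 in the mock and 366 and 184 in XR6 and XR50. CHLRE_07g332275v5 (chromosome 7, 2862849 to 2866231) had 39 counts in the mock, 262 after γ-rays of 6 Gy and 233 of 50 Gy, and 113 (XR6) and 71 (XR50) after X-rays. In both, XR6 stood above XR50 and below the γ-ray libraries. The other 4 were CHLRE_10g436000v5, described above, and CHLRE_07g316450v5, CHLRE_03g181450v5 and CHLRE_09g388986v5, which had 11 to 22 counts in the mock.

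Between the doses of γ-rays, the median log2 ratio of GR50 to GR6 was -0.07, with a range from -1.65 to 0.98. The rule set the upper end at 1 and no lower end. GR6 was the higher in 92 genes (53.8%, against 51.2% of all). GR50 was higher beyond the counting error in 49 genes (28.7%, against 28.4% of all genes), GR6 in 64 (37.4%, against 26.6%), and 58 genes were within it. The limit on GR50 barred large rises, and genes with more reads pass this call more easily, so these shares are not like for like. Between the doses of X-rays, the median log2 ratio of XR50 to XR6 was -0.22, against 0.01 over all genes. XR50 was below XR6 in 123 genes (71.9%, against 49.5%), beyond the counting error in 74 (43.3%, against 23%), and above it beyond the counting error in 19 (11.1%, against 25.9%). The rule capped both X-ray libraries, so these shares are shaped in part by the choice of the genes. With library totals, XR50 was below XR6 in 145 genes (84.8%), while the share among all genes moved to 64.4%. A fall of at least 1.8-fold from XR6 to XR50 was seen in 17 genes (9.94%, against 3.16%), and a difference of this size in the other direction in 2 (1.17%, against 3.09%), CHLRE_12g521900v5 and CHLRE_07g314700v5. The latter had only 10 and 21 counts in XR6 and XR50, and its ratio was within the counting error (log2 1.04, -0.03 to 2.36). CHLRE_12g492650v5, named after its values were seen, had 392 counts in GR6 and 375 in GR50, against 122 in the mock, 116 in XR6 and 42 in XR50. XR6 was near the mock in this gene and XR50 was well below both.

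**Figure D4:**
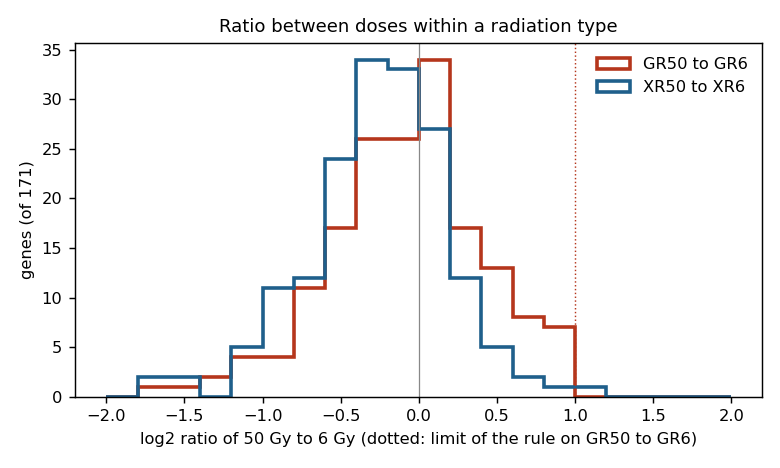
The outlines give how many of the 171 genes fall in each 0.2-wide bin of the log2 ratio of 50 Gy to 6 Gy, in red for γ-rays and in blue for X-rays, with 1 library per dose. The dotted line marks the limit of the rule for γ-rays. The blue outline is shifted to the left of 0 (median -0.22), and the red outline is centred near 0 (median -0.07) and ends at the limit on its right side.

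GR6 was at least 2 times GR50 in 8 of the 171 genes (4.68%, against 2.09% of all genes). CHLRE_10g445000v5 (chromosome 10, 3489763 to 3495854) had the largest such ratio, with 4040 counts in GR6, 1361 in GR50 and between 400 (XR50) and 577 (mock) in the others, XR6 having 558 (log2 ratio of GR50 to GR6 -1.65, -1.74 to -1.56). CHLRE_17g723350v5 (chromosome 17, 3324347 to 3329585) had 1029 counts in the mock, 7112 after γ-rays of 6 Gy and 3540 of 50 Gy, and 1461 (XR6) and 712 (XR50) after X-rays. Its span overlaps that of CHLRE_17g723300v5, and without the strand setting of the counting, reads of the 2 genes cannot be told apart with certainty. Both genes were thus highest at the lower γ-ray dose and still above every other library at the higher one. The other 6 were CHLRE_13g566850v5, CHLRE_01g033300v5 and CHLRE_13g589350v5, which were also among the genes low after X-rays, and CHLRE_16g657600v5, CHLRE_06g287050v5 and CHLRE_17g697406v5. On the opposite side, CHLRE_13g564900v5 was the closest to the limit, with 4292 counts in GR6 and 8915 in GR50, against 1782 in the mock, 2078 in XR6 and 1689 in XR50, a ratio of 1.97-fold. The rule limited this side only, so 4.68% and 2.09% for GR6 over GR50 are not like for like.

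The limits of the rule cut through a continuous range of values. Just inside the 1.8-fold limit were CHLRE_02g083900v5, CHLRE_04g219796v5, CHLRE_03g211185v5, CHLRE_14g613950v5 and CHLRE_03g186200v5, with margins between 1.802-fold and 1.808-fold. Just outside were CHLRE_10g452150v5, CHLRE_06g278350v5, CHLRE_16g680454v5, CHLRE_17g724150v5 and CHLRE_07g313250v5, with margins between 1.791-fold and 1.7998-fold. The interval of a gene such as CHLRE_04g219796v5 (49 and 65 counts in GR6 and GR50, with 16 in the mock and 28 and 27 in XR6 and XR50) reached from 0.18 to 1.60 on the log2 scale, many times the distance between these groups. Just inside the limit on GR50 were, after CHLRE_13g564900v5, CHLRE_08g361350v5, CHLRE_15g640200v5, CHLRE_01g002050v5 and CHLRE_12g517451v5, with GR50 between 1.77 and 1.87 times GR6. Just outside it were CHLRE_02g118200v5, CHLRE_01g045600v5, CHLRE_15g638551v5, CHLRE_09g396401v5 and CHLRE_12g521851v5, with GR50 between 2.01 and 2.13 times GR6. In all, 45 genes passed the margin with GR50 at least 2 times GR6, with a median of 3.09 times, and without this limit 216 genes (1.68%) would have been taken. The 171 genes had a median mean count of 422.2, against 209.2 for all genes with a mean of 20 or more. This mean includes GR6 and GR50, which the rule required to be high, so the rule itself raises it. A mean under 100, where the intervals are wide, was found in 29 of the 171 genes. CHLRE_13g585175v5 (11 counts in the mock, 30 after γ-rays of 6 Gy and 53 of 50 Gy, and 11 (XR6) and 16 (XR50) after X-rays) had an interval of 0.01 to 1.90 for its log2 margin.

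Position on the chromosome played no part in the choice of the genes. All 171 genes lay on the 17 chromosomes, from 2 genes on chromosome 15 to 19 on chromosome 12. As a share of the genes with a mean of 20 or more, chromosome 13 held the most (14 of 615, 2.28%), and the other chromosomes held between 0.909% and 1.72%. Gene spans were alike, with a median of 4742 bp, against 4762 bp for all genes with a mean of 20 or more. Another of the 171 genes was the next gene along the chromosome for 29 of them (17%), whereas 2.12% of all genes with a mean of 20 or more on chromosomes were next to 1 of the 171. Within 10 kb, another was found for 36 genes (21.1%, against 4.57%). Among the 31 genes of the turned-around rule, 2 were next to each other (6.45%). The share of all genes next to 1 of these 31 was not computed, so 6.45% cannot be set against the 17%. Neighbouring genes are not independent, and no test was made.

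The 29 genes formed 1 run of 3 genes and 13 pairs. The gaps within them ran from 48 to 4588 bp, with a median of 140 bp, which is near the median of 130 bp between next genes over the whole annotation. No spans overlapped within a run. Strands are not given in the table of positions used here. Reads of a transcript that runs on into the next gene would be counted there, and the part of this in the neighbouring values was not tested.

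The run of 3 on chromosome 13 held CHLRE_13g569350v5 (1113556 to 1117906), CHLRE_13g569400v5 and CHLRE_13g569450v5, with gaps of 411 and 144 bp. CHLRE_13g569350v5 had 897 counts in GR6 and 797 in GR50, against 260 in the mock, 269 in XR6 and 133 in XR50, and thus shared with the other 2 the low value in XR50. The levels within the run did not move in parallel, since GR6 exceeded GR50 in CHLRE_13g569400v5 by a log2 value near 0.89 while the doses were close in CHLRE_13g569450v5 (0.13). The next gene, CHLRE_13g569500v5, missed the margin only in GR50, with 26100 and 11254 counts in GR6 and GR50, with 6316 in the mock and 3749 and 3888 in XR6 and XR50. It was also lower after X-rays than in the mock (log2 -0.89 in XR6 and -0.79 in XR50). Its span of 2704 bp is equal to that of CHLRE_13g569400v5. The gene after it, CHLRE_13g569550v5, was lower in both γ-ray libraries than in the mock and higher in both X-ray libraries (1163, 2301, 1727, 951 and 1010 counts in the mock, XR6, XR50, GR6 and GR50), so the pattern ended there.

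On chromosome 12, CHLRE_12g521900v5 and CHLRE_12g521950v5 were 48 bp apart and had the same span of 4512 bp. The gene before them, CHLRE_12g521851v5 (4504413 to 4506774), had 78 counts in the mock, 1431 after γ-rays of 6 Gy and 3222 of 50 Gy, and 87 (XR6) and 152 (XR50) after X-rays. Its margin of 9.51-fold was larger than that of all but 2 of the 171 genes, and it was left out only because GR50 was 2.13 times GR6. The log2 ratio of GR6 to the mock was 4.11, 3.35 and 2.52 along the 3 genes, and that of GR50 was 5.21, 3.98 and 2.53. The next gene on this side, CHLRE_12g522000v5, had 136, 127, 110, 104 and 127 counts in the mock, XR6, XR50, GR6 and GR50, with no γ-ray value above the mock after scaling. No sequences were compared, so whether such neighbours with equal spans are copies that could share reads was not tested. Reads aligned to more than 1 place were set apart by the counter and are in none of these values.

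**Figure D5:**
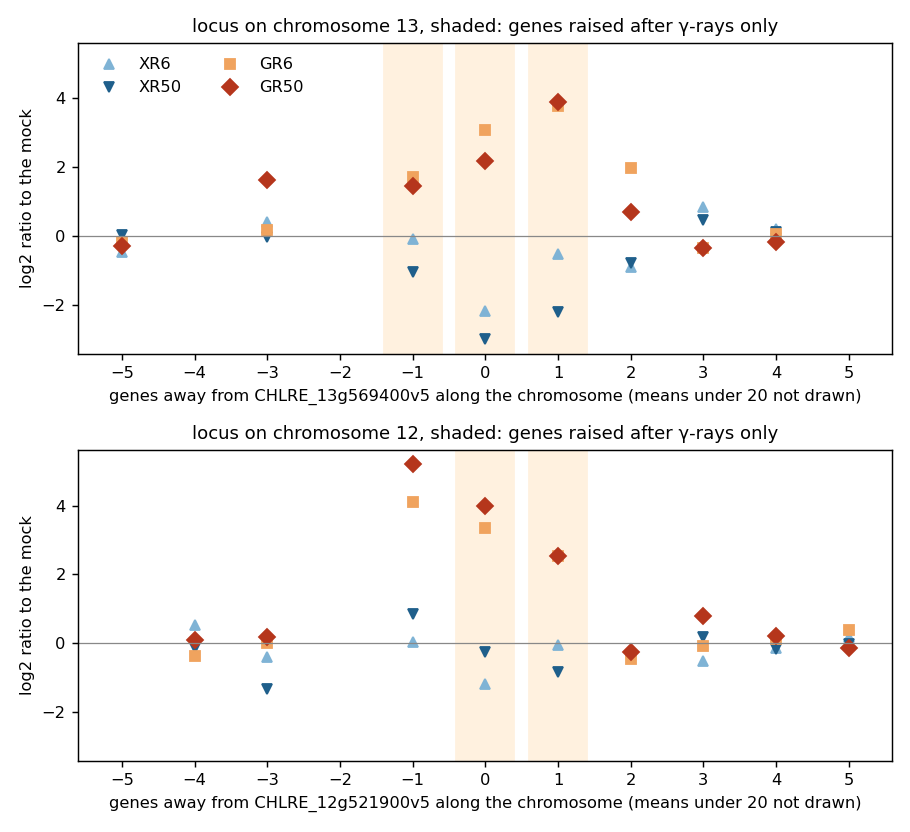
Points give the log2 ratio to the mock in XR6, XR50, GR6 and GR50 for genes up to 5 places on either side of CHLRE_13g569400v5 (top) and CHLRE_12g521900v5 (bottom), in their order along the chromosome, with genes under a mean of 20 not drawn. Shading marks the genes of the 171. At both places the γ-ray points stand high over the shaded genes and an unshaded neighbour (1.98 in GR6 for CHLRE_13g569500v5, 4.11 for CHLRE_12g521851v5), and lie below 0 at the next gene to their right (-0.36 and -0.45 in GR6).

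Several further pairs joined genes of very different depth. CHLRE_16g653601v5 (chromosome 16, 1563740 to 1565175), 460 bp before CHLRE_16g653650v5, had 416 counts in GR6 and 637 in GR50, against 194 in the mock, 123 in XR6 and 160 in XR50. Like its neighbour it was lower after X-rays and highest in GR50, with a margin of 2.04-fold against 4.43-fold. CHLRE_06g263500v5, 110 bp before CHLRE_06g263550v5, had 363 and 384 counts in GR6 and GR50, with 126 in the mock and 114 and 115 in XR6 and XR50. It did not show the low X-ray values of its neighbour. CHLRE_01g018850v5 and CHLRE_01g018900v5 were 140 bp apart and had the same log2 margin of 1.29. The former, with 50 counts in the mock, did not differ between the γ-ray doses beyond the counting error (165 counts in GR6 and 209 in GR50), whereas the latter, with 1066 in the mock, was higher in GR6 (3894 and 2890).

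On chromosome 6, CHLRE_06g298750v5, CHLRE_06g298800v5 (7310641 to 7319383) and CHLRE_06g298850v5 (7319551 to 7325842) were all among the 171 genes. CHLRE_06g298800v5 had 168 counts in the mock, 529 after γ-rays of 6 Gy and 407 of 50 Gy, and 122 (XR6) and 83 (XR50) after X-rays, and CHLRE_06g298850v5 had 2100, 2173, 1383, 7207 and 5878 in the mock, XR6, XR50, GR6 and GR50. All 3 were lowest in XR50 and higher in GR6 than in GR50. Between the last 2 the annotation places CHLRE_06g298802v5 (7312792 to 7313840), which lies within the span of CHLRE_06g298800v5 and had 285 counts in GR6 and 366 in GR50, against 117 in the mock, 175 in XR6 and 113 in XR50. Reads in this overlap cannot be given to either gene with certainty without the strand setting. Of the 171 genes, only CHLRE_06g298800v5 and CHLRE_17g723350v5 overlapped the span of another gene.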

How the data were processed

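RNA was sequenced from 5 samples of C. reinhardtii, with 1 column of counts for each radiation type and dose and 1 for the mock. Per the labels and methods, the authors checked reads with FastQC 0.11.5, trimmed them with Trimmomatic 0.36, aligned them by HISAT2 2.2.1 (assembly NCBI v5.5) and counted them on genes with HTSeq 0.11.3. The deposited values are raw counts per gene, without normalization, and the 5 counters of reads outside genes stayed out of all steps. The strand setting is not given in the sources used here.

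Python 3.11.15 was used, with numpy 2.4.6 and pandas 2.3.3. Size factors were medians of ratios over 15141 genes above 0 in all libraries. Ratios are on the log2 scale of scaled counts plus 1, which understates ratios of low counts. Exact 95% intervals (Clopper-Pearson for ratios, Poisson for counts) were computed with scipy 1.17.1 from raw counts. A ratio was called beyond the counting error when its interval excluded 1-fold. Genes with more reads pass this call more easily, so its shares depend on depth. No test was made, because each condition had 1 library and the genes were chosen on these values. Alternatives were TMM factors of edgeR 4.0.16 (R 4.3.3), library totals, other added values, limits and count minimums, and thinning. Another was dropping the conditions on each library in turn.

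The genes, rules and alternatives were chosen with earlier results of these data known. Named were the 12 genes with the largest margin, the 6 with the most reads, 6 neighbouring genes and 5 genes on either side of each limit, and others after their values were seen. These others are the further neighbours, the genes at least 1.8-fold below the mock in both X-ray libraries or above it in XR6, those with GR6 at least 2 times GR50, and single examples. Lists by function, protein families and promoter motifs were not analysed here, because the reference table holds ORF names and positions alone.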

Additional observations from a re-analysis of the deposited data

How the results depend on the processing

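The number of genes taken moved with the fold asked for, with 405 genes at 1.5 times, 118 at 2 times and 22 at 3 times in place of 171 at 1.8 times, and 95 when the exact intervals of all 6 ratios had to lie above 1.8. Dropping the conditions on each library in turn gave between 197 and 1010 genes (XR50 and GR6), with 362 without the mock and 410 without GR50. The size factors and mean counts still included the library in question. Dropping the condition on the mock was listed again as an alternative after seeing the data. It is the same setting, so its 362 genes are no separate result. These settings remove conditions and so can only add genes. Other scalings, added values, count minimums, thinning and limits on the doses gave between 158 and 242 genes. TMM factors took 163 genes and library totals 179, of which 163 and 155 were among the 171. The median log2 ratio of XR6 to the mock over the 171 genes turned from -0.13 to 0.064 with library totals, where the median of all genes moved to 0.20. Relative to all genes it was -0.14. The median margin stayed between 1.09 and 1.11 on the log2 scale under the 5 alternative scalings and added values. Of 145 margins of 29 named genes under these settings, 138 stayed within their counting interval, 7 moved beyond it and 0 changed direction. Those that moved beyond it all did so with library totals. The 0 was nearly fixed beforehand, since the rule put every margin at 1.8-fold or more and these settings moved margins by much less. With genes over the limit on GR50 included, 38 of the 214 genes placed on chromosomes were next to each other (17.8%). Of all genes with a mean of 20 or more, 2.61% were next to 1 of these. For the 171 genes the values were 29 (17%) and 2.12%. No paired analysis was possible because each condition had 1 library. Alternatives for protein families, promoter motifs and lists by function were not run, since they need sequences or gene names. Depth limits the genes with few reads most. CHLRE_08g381650v5, with a mean count of 23.2, had an interval of 0.12 to 1.97 for a log2 margin of 0.98.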
